A study of Homo sapiens with 6 samples.

Results

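THE1 and MST are the youngest branches of the mammalian apparent LTR retrotransposons (MaLRs), nonautonomous relatives of the endogenous retrovirus ERVL. Their loci were taken by name, as every annotated element of the ERVL-MaLR family in a THE1 or MST subfamily with RNA listed in at least 1 of 6 libraries, which gave 11529 of the 723309 LTR, LINE, SINE and DNA element loci listed. The libraries were stranded and polyA-selected and came from SW480, an established human colon adenocarcinoma line. There were 3 SW480 lines with pLENTI CMV Clover, a fluorescent control, and 3 with pLENTI CMV Z18trunc, ZC3H18 with a truncated end, a nuclear RNA surveillance protein, and both groups had gone through lentiviral transduction and antibiotic selection. A CMV promoter drove either transgene, and no change to the cells' own ZC3H18 gene is described. The study made its lines in biological triplicate.

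A complete MaLR has a pair of long terminal repeats (LTRs) around an internal part, named with the ending int, and many copies are a single LTR left by recombination. An LTR can hold a promoter and a polyadenylation signal, and genes have used both, as in THE1 LTRs that drive genes in placenta and in lymphoma. ZC3H18 joins the nuclear cap-binding complex to the NEXT and PAXT adaptors of the RNA exosome, which degrade unstable nuclear RNA. The comparison asked whether RNA of these elements differed in abundance when the truncated form was present.

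Aligned fragments ranged from 18226033 to 22463310 per library, and 3 counts, the most that a count of 0 allows, stood for 0.134 to 0.165 CPM, the count divided by aligned fragments and multiplied by 1000000. This floor covers counting error, and reads without molecular identifiers are not independent molecules. ZC3H18 itself was at 57.2 ± 5.39 TPM (SD, n = 3) in Clover and 763 ± 31.2 TPM (n = 3) in Z18trunc, a value that does not separate the transgene from the cell's own gene. All 7 intestinal epithelial genes on a marker list were detected, with KRT8 at 9394 TPM or more in every library, while PTPRC and PECAM1 were listed at 0, CD3E reached at most 0.321 TPM and COL1A1 lay between 1.14 and 1.55 TPM. Counts of elements on the strand opposite to the element and outside exons were 10217 to 12215 CPM in Clover and 12356 to 14716 CPM in Z18trunc. This background of RNA moved with the groups, and its part in the results was not tested. In bulk RNA, fewer cells with a transcript and less of it per cell cannot be told apart.

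The sequences of 3 abundant loci show where LTRs hold a polyadenylation hexamer (capitals mark AATAAA or its variant, with ATTAAA as the spelling of the latter). They come from hg38, read 5′ to 3′ on the strand of the element, and hold 30 bases around the hexamer in LTRs inside the 3′ UTRs of KRT80 (chr12:52169004-52169033, minus strand), PPIF (chr10:79355311-79355340, plus strand) and MYORG (chr9:34368918-34368947, minus strand).
MSTB in KRT80: attgtgagccaaAATAAAtgtcttttcttt
MSTA in PPIF: caATTAAAcctttttaatAATAAAttactc
THE1B in MYORG: agctgtgagttcATTAAAcctctttttctt

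Among LTRs of 300 to 450 bp, ATTAAA was present in 70.8% of 3886 THE1 and 38.2% of 3755 MST copies, against 13.6% of 19970 other LTR-class loci of the same length range. AATAAA, the more common signal in genes, was present in 9.06% of THE1, 33.7% of MST and 38.1% of the others. The match began a median of 74 bases before the end of the LTR for ATTAAA in both branches and 72 bases for AATAAA in MST. TATAAA, the core of a TATA box and also a weak polyadenylation signal, was present in 55.0% of THE1 and 56.3% of MST LTRs against 21.0% of the others. It began a median of 58 bases before the end of the LTR in THE1 and 56 in MST, nearer to the end than ATTAAA. Whether it acts as a TATA box was not tested. These searches were on the strand of the element. On the other strand ATTAAA was in 5.53% of THE1 and 9.45% of MST, AATAAA in 20.02% and 8.63% and TATAAA in 68.9% and 66.7%, and matches of different hexamers may overlap. A match is a description of the letters and was not shown to be a used site.

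Annotated transcripts ended inside these LTRs at a short distance from the hexamer. GENCODE 44 placed 278 transcript ends in 193 member LTRs on their own strand, and in 170 of them (61.2%) the nearest upstream AATAAA, or else its variant ATTAAA, began 10 to 35 bases before the end, a median of 22 bases. In KRT80 this distance was 25 bases, in KDM7A-DT 25 bases, in PPIF 21 bases and in ENSG00000234156 19 bases. Of the 166 member LTRs with enough counts to test, 47 (28.3%) held an annotated transcript end and 3 (1.81%) an annotated start. With internal parts included, 53 of the 235 member loci tested (22.6%) held an end and 4 (1.70%) a start. The corresponding shares were 20.7% and 5.67% of 1870 other LTR-class loci tested, which also include internal parts. These shares are descriptions of annotated loci and carry no test.

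**Figure D1:**
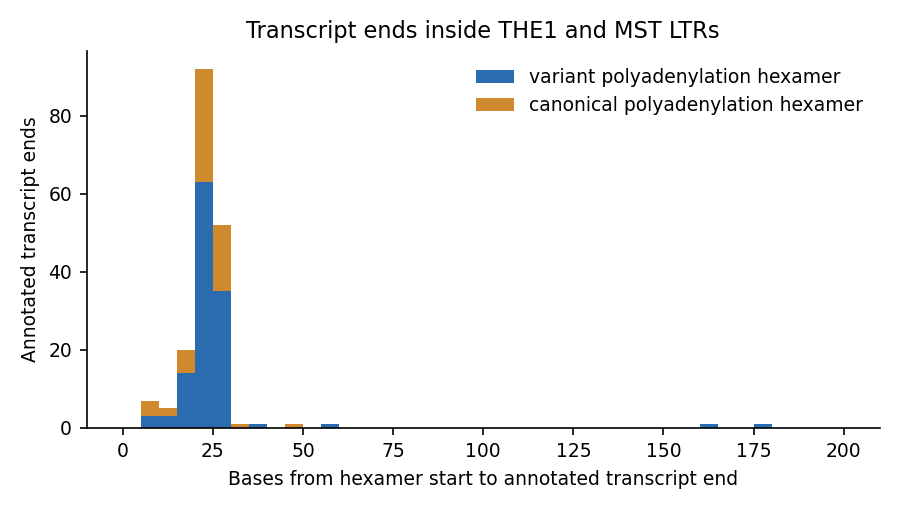
The histogram counts annotated transcript ends inside THE1 and MST LTRs (vertical axis) by the number of bases from the start of the nearest upstream polyadenylation hexamer to the end (horizontal axis, bins of 5 bases), stacked for the variant hexamer ATTAAA and the canonical AATAAA. It covers the 182 ends with such a hexamer in the LTR, and 96 ends without one are left out. Most lie in a narrow peak between 15 and 30 bases.

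Most member loci were barely expressed. Own-strand RNA was listed for 5508 loci, opposite-strand RNA for 6605, and 1693 to 2313 loci had own-strand counts in a single library. In each library 51.7% to 55.5% of these had at most 1 fragment, 426 loci were seen in all 6 libraries and 2902 in 1. The 235 loci with at least 30 counts over the 6 libraries held 65.5% of the own-strand CPM, and the 8 most abundant held 21.9%. Neighbouring fragments of 1 element share a transcript, and the 235 tested loci formed 183 units when loci within 1000 bp were joined. Members supplied 9.09% to 10.2% of the own-strand LTR counts of a library, and between 68.1% and 71.6% of their counts were uniquely mapped.

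The 8 most abundant loci all lay in an exon of a gene on their own strand. The MSTB LTR in the 3′ UTR of KRT80 (chr12:52168982-52169353), a type II epithelial keratin, was the highest at 22.5, 25.8 and 22.9 CPM in the Clover libraries and 20.4, 19.8 and 19.0 CPM in Z18trunc. It also had the highest level per length of the named loci, 58.4 CPM per kb. All Z18trunc values lay below all Clover values, with a log2 change of -0.26 ± 0.11 (SE) and an edgeR adjusted p of 0.426, while KRT80 itself was at 157 ± 11.0 TPM in Clover and 163 ± 6.40 TPM in Z18trunc. DESeq2 with its own filter called this locus, at an adjusted p of 0.0264, where 13 of all 12453 loci were called lower and 5 higher.

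THE1B-int and THE1B loci in the 3′ UTR of MYORG, a glycosidase gene, followed as parts of 1 element (chr9:34367298-34368859 and chr9:34368860-34369215). The internal part was at 19.0, 16.9 and 19.97 CPM in Clover and 18.6, 15.5 and 15.6 CPM in Z18trunc, and the LTR was at 6.68, 6.74 and 8.15 CPM against 6.86, 6.29 and 5.76 CPM. The groups overlapped for both. The MSTA LTR that ends PPIF (chr10:79354983-79355373), the gene of mitochondrial cyclophilin, was at 15.9, 17.5 and 15.3 CPM against 14.9, 13.7 and 16.2 CPM, again with overlap.

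HLA-E, a nonclassical class I antigen presentation gene, carried MST-int and MSTC in its 3′ UTR (chr6:30493707-30494073 and chr6:30493514-30493719). MST-int was at 14.6, 13.0 and 11.5 CPM in Clover and 12.8, 14.03 and 12.04 CPM in Z18trunc, and MSTC was at 7.39, 8.35 and 5.9999 CPM against 8.12, 5.88 and 6.53 CPM. Neither pair of groups separated, and HLA-E was at 96.8 ± 4.09 and 94.5 ± 3.85 TPM.

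Abundant loci in noncoding RNA had other values. MSTA in KDM7A-DT (chr7:140179276-140179654), a transcript divergent from the histone demethylase gene KDM7A, was at 5.48, 5.49 and 6.05 CPM in Clover and 6.66, 7.79 and 6.72 CPM in Z18trunc. The groups did not overlap, the log2 change was 0.31 ± 0.15 and the adjusted p was 0.498, and KDM7A-DT was at 34.97 ± 1.10 and 44.6 ± 1.34 TPM (limma adjusted p = 0.0773). THE1A-int in OR2A1-AS1 (chr7:144335358-144336933) was at 7.46, 5.22 and 4.46 CPM against 6.83, 6.98 and 5.06 CPM, and with 26.0% of its counts uniquely mapped its share between near-identical copies is uncertain.

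No single member locus passed the adjusted threshold of 0.05 on its own strand, in either direction, in edgeR. Over all 12453 loci tested, 0.177% were called higher and 0.0241% lower. Without the adjustment, p was under 0.05 at 20 member loci in the higher direction (8.51%) and at 6 in the lower (2.55%), against 8.17% and 1.77% of all loci. The 3 Z18trunc values lay above the 3 Clover values at 25 of the 235 loci (10.6%), against a background of 12% of all loci, and below them at 9 (3.83%), against 3.64%. The median log2 change was 0.11 over members and 0.17 over all loci, and both moved with the scaling, to -0.06 and 0.00 with TMM and to -0.16 and -0.11 when libraries were scaled to opposite-strand counts. DESeq2 called no member with the adjustment over all loci and 1, the KRT80 locus, with its own filter. With that filter 5 of all 12453 loci were called higher and 13 lower. In simulated libraries of this comparison with 12453 loci, 20.2% of 2-fold and 69.4% of 4-fold changes were called, so a change of 2-fold at a member locus would often be missed at this depth. Of the calls made there, 11.2% were false.

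The 6 loci with the smallest p among those higher in Z18trunc had few counts, apart from one in EDAR. THE1B-int in an exon of IGFL4 (chr19:46057990-46058857), a gene of the insulin growth factor-like family, had 15, 19 and 15 counts in Clover and 46, 26 and 40.6 in Z18trunc. The groups did not overlap, with a log2 change of 1.17 ± 0.30 and an adjusted p of 0.0874. It was 0.0454 among the 3820 loci with at least 100 counts, of which 34 were called higher and 2 lower. The adjusted p was 0.229 with TMM, 0.328 with scaling to opposite-strand counts, 0.1002 to 0.288 when 1 library was left out, and 0.999 in DESeq2 with the adjustment over all loci. IGFL4 itself went from 2.11 ± 0.104 to 4.08 ± 0.609 TPM (limma adjusted p = 0.0773).

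The intronic MSTA in ZBTB46 (chr20:63763319-63763712), a zinc finger gene known from dendritic cells, had 0, 2 and 1 counts in Clover and 10, 12 and 6 in Z18trunc. With 3 counts in all of Clover, the rate ratio was 9.27, with an exact 95% counting interval of 2.86 to 47.6, and the adjusted p was 0.1005. The interval pools the libraries of each group, leaves out the variation between them, and makes no allowance for picking the locus by its small p. ZBTB46 was at 16.2 ± 1.25 and 16.5 ± 0.499 TPM. MSTA-int in an intron of ANKRD18A (chr9:38556991-38558574) had 4, 1 and 4 counts against 14, 14.9 and 8.59, with no overlap and an adjusted p of 0.168.

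THE1D-int in an intron of EDAR (chr2:108946868-108948447), the ectodysplasin receptor, had 84, 90 and 63 counts in Clover and 129, 96.6 and 118 in Z18trunc. In CPM the groups were apart, with a log2 change of 0.52 ± 0.17 and an adjusted p of 0.274, and EDAR was at 77.4 ± 8.63 and 94.0 ± 3.70 TPM. MSTA in the 3′ UTR of TRMT5 (chr14:60973202-60973506), a tRNA methyltransferase gene, was at 0.0579, 0.105 and 0.204 CPM against 0.312, 0.494 and 0.762 CPM. A THE1A LTR in OR2A1-AS1 (chr7:144336934-144337352) was at 0.200, 0.137 and 0.0998 CPM against 0.223, 0.856 and 0.597 CPM, with 7.11% of counts uniquely mapped, so its value is uncertain.

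The smallest p of any member was that of a lower locus. The THE1A LTR that ends the lncRNA ENSG00000234156 (chr9:122469191-122469545) had 7, 16 and 17 counts in Clover and 2 in each Z18trunc library. Its log2 change was -2.69 ± 0.63 with an adjusted p of 0.0553. This became 0.0148 without Clover replicate 1, the lowest of the control libraries, and 0.0375 when libraries were scaled to opposite-strand counts. In these settings 6 and 4 of all 12453 loci were called lower, against 3 in the main analysis. The adjusted p was 0.173 to 0.234 when any other library was left out, and 0.360 in DESeq2 with the adjustment over all loci. The other lower loci had larger p-values. MSTB in the 3′ UTR of IRAK4 (chr12:43789116-43789482), a kinase of Toll-like receptor signalling, was at 0.942, 1.15 and 0.611 CPM in Clover and 0.312, 0.494 and 0.429 CPM in Z18trunc. MSTD in an exon of ZNF875 (chr19:37328325-37328715), a zinc finger gene, was at 0.801, 0.470 and 0.611 CPM against 0.267, 0.439 and 0.191 CPM. THE1B-int at chr9:41376388-41377683, in an intron of the lncRNA ENSG00000288891, was at 0.352, 0.638 and 0.446 CPM against 0.157, 0.194 and 0.194 CPM. For these loci the groups did not overlap and the adjusted p was 0.335 to 0.456. MSTB1 in the 3′ UTR of JRK was at 2.36, 1.99 and 1.38 CPM against 0.846, 1.32 and 1.62 CPM, with overlap. Host levels in Clover and Z18trunc overlapped, at 4.21 ± 0.863 and 4.53 ± 0.432 TPM for IRAK4. ZNF875 was at 7.14 ± 2.35 and 9.56 ± 0.642 TPM, and JRK at 8.02 ± 0.937 and 6.18 ± 2.79 TPM. MSTB-int parts in the same unit as the IRAK4 locus had log2 changes of 0.05 and -0.26, against -1.13 for that locus.

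**Figure D2:**
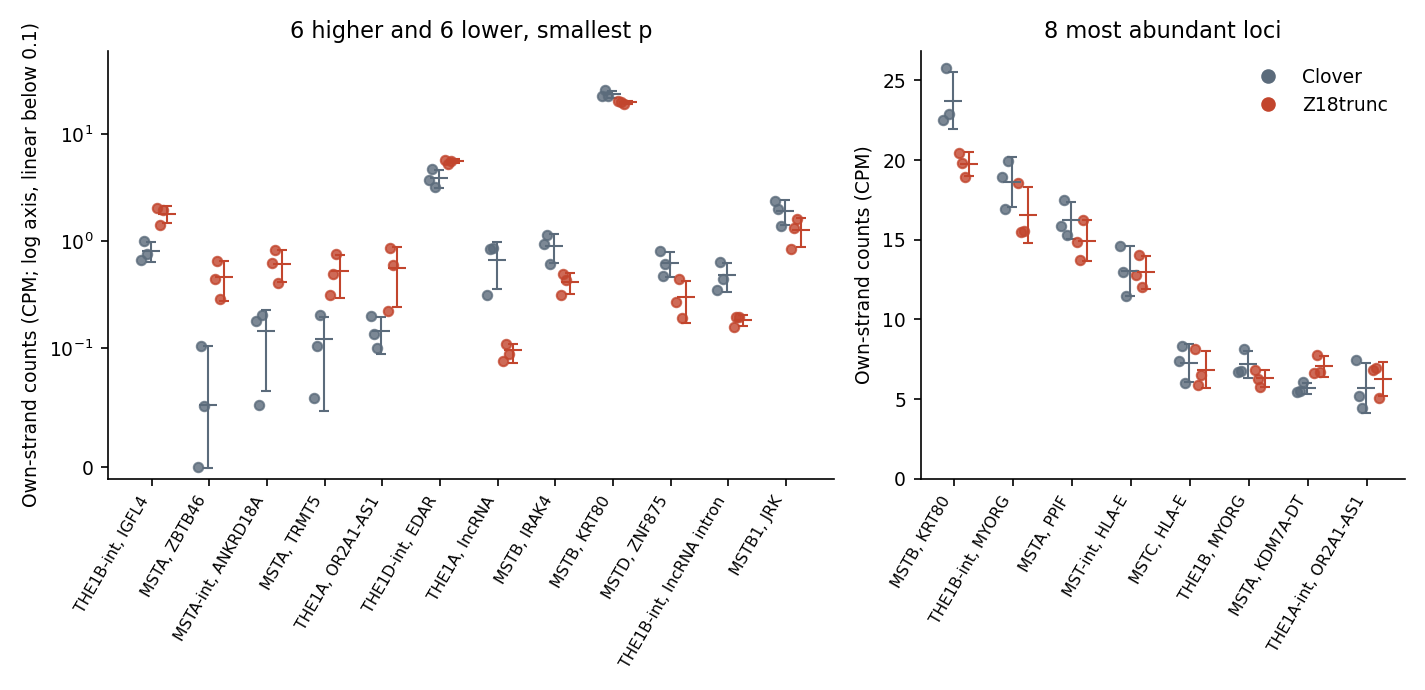
Points are own-strand CPM in each library (vertical axis), Clover in grey and Z18trunc in red, with bars for the mean ± SD of 3 libraries, for the 6 loci higher and 6 lower with the smallest p (left, log axis that turns linear below 0.1) and for the 8 most abundant loci (right, linear axis). On the right the groups separate for MSTB in KRT80, which is lower in Z18trunc, and for MSTA in KDM7A-DT, which is higher.

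Summed over all members, own-strand RNA was 423, 420 and 388 CPM in Clover and 426, 447 and 477 CPM in Z18trunc. The groups did not overlap, by a margin of a few CPM, and the log2 ratio of the means was 0.13. The sign turned to -0.05 when the sum was taken relative to all element counts of both strands, 0.873% ± 0.0149 in Clover and 0.845% ± 0.00608 in Z18trunc. LTR elements other than THE1 and MST had a log2 ratio of 0.22, other ERVL-MaLR elements 0.11 and ERVL 0.14. THE1 alone was at 199 ± 6.52 and 220 ± 7.88 CPM without overlap, and MST alone at 211 ± 13.4 and 230 ± 17.8 CPM with overlap.

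The sum split by exon context. Loci that overlapped an exon on their own strand summed to 212, 217 and 203 CPM in Clover and 208, 208 and 212 CPM in Z18trunc, a log2 ratio of -0.01 with overlap. The other loci summed to 211, 204 and 186 CPM against 219, 238 and 265 CPM, a log2 ratio of 0.27 without overlap. Among the latter, loci on the strand of a gene but outside its exons were at 91.9 ± 9.11 and 114 ± 17.0 CPM, with overlap, and loci outside genes and exons at 90.7 ± 4.34 and 107 ± 5.33 CPM, without overlap. Within both groups, the libraries had the same order in the non-exonic sum as in the opposite-strand background given above. Whether exonic and non-exonic loci differed in their change was not tested.

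**Figure D3:**
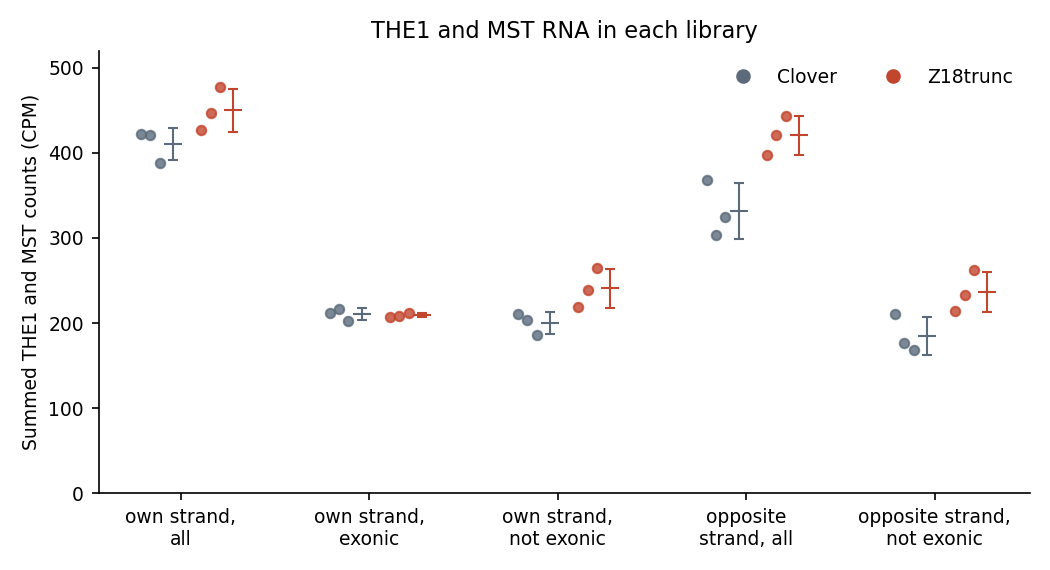
Points are summed CPM of THE1 and MST loci in each library (vertical axis, from 0), Clover in grey and Z18trunc in red, with bars for the mean ± SD of 3 libraries, for all own-strand counts, their exonic and non-exonic parts, and opposite-strand counts in all and outside exons of either strand. The exonic points of both groups lie together at 203 to 217 CPM, and in the other sums every Z18trunc point lies above every Clover point.

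The same split was seen per locus. Of 106 exonic loci tested, 57 were higher and 49 lower with a median log2 change of 0.05. Of 129 non-exonic loci, 81 were higher and 48 lower with a median of 0.21. Over all 12453 loci tested, exonic and non-exonic together, 8031 were higher and 4422 lower, with a median of 0.17. In subfamily totals without exonic loci, the median was 0.19 over 21 member subfamilies and 0.27 over all 834. By part of the element, the median was -0.03 over 94 MST LTRs, 0.32 over 26 MST internal parts, 0.11 over 72 THE1 LTRs and 0.20 over 43 THE1 internal parts. Of the tested LTRs 53.6% were exonic, against 24.6% of the internal parts, so part and exon context were not separated here. A comparison with the host gene was possible for 102 loci that had 1 host on their strand with a mean of at least 1 TPM. For 70 exonic loci in 58 genes the median log2 change was -0.03 for the locus and 0.14 for the gene, and for 32 non-exonic loci in 25 genes 0.44 and 0.16. The locus lay above its gene at 22 exonic and 22 non-exonic loci and below it at 48 and 10. The scales differ, since genes were measured as log2(TPM + 1) and loci as counts, and Pearson's r across loci, which share libraries, was 0.45 for exonic and -0.21 for non-exonic loci.

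**Figure D4:**
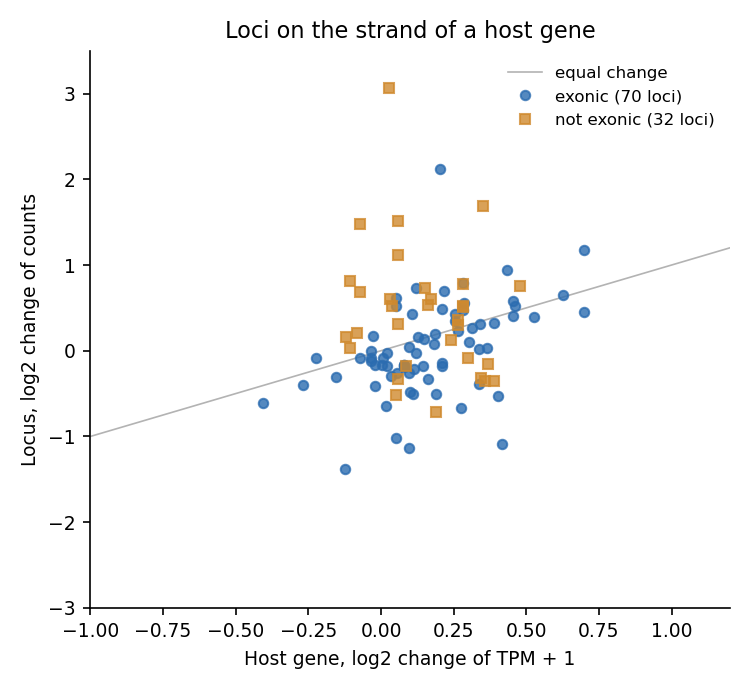
Each point is a tested THE1 or MST locus on the strand of a host gene, with the log2 change of the gene's TPM + 1 (horizontal axis) and of the locus counts (vertical axis), in blue for 70 exonic and in orange for 32 non-exonic loci, and a grey line marks equal change. The 2 axes differ in scale and range. Orange points lie mostly above the line, the highest being MSTA in ZBTB46 at 3.07, and blue points mostly below it.

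The 24 subfamilies, 9 of THE1 and 15 of MST, differed widely in level. MSTA had the largest sum, 78.8 ± 5.14 CPM in Clover and 87.0 ± 7.20 CPM in Z18trunc, followed by THE1B at 57.6 ± 2.40 and 62.2 ± 2.23 CPM. Per kb of loci with own-strand RNA, MST-int stood at 2.53 CPM, nearly all from the HLA-E locus, and the other subfamilies between 0.0143 and 0.286 CPM.

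Of the 22 subfamilies tested none was called on its own strand by edgeR, against a background of 1.89% of 898 subfamilies called higher. Without the adjustment, 2 (9.09%) passed in the higher direction and 0 in the lower, against 24.6% and 0% of all subfamilies. The groups did not overlap for 4 subfamilies (18.2%), all with Z18trunc above, against 27.7% of all subfamilies above and 1.45% below. DESeq2 called none either. The change was above 0 for 20 of 22, against 757 of all 898, with a median of 0.13 against 0.21 over all subfamilies. With TMM it was below 0 for 17 of 22, and these medians were -0.07 and 0.01. MSTA-int had the smallest p, at 21.0, 18.6 and 20.5 CPM in Clover and 22.5, 27.3 and 30.7 CPM in Z18trunc, with no overlap. Its log2 change was 0.42 ± 0.12 with an adjusted p of 0.0645, which became 0.0339 with uniquely mapped counts and 0.0158 without Z18trunc replicate 1. Calls over all subfamilies rose in these settings too, from 17 of 898 to 58 of 857 and 81 of 898. For MSTA-int, leaving out any other library gave adjusted p-values from 0.111 to 0.162. The change fell to 0.21 with TMM (adjusted p = 0.420) and to 0.13 with scaling to opposite-strand counts (adjusted p = 0.699). The next were THE1D-int (0.29 ± 0.13), MSTB1-int (0.64 ± 0.32), THE1A-int (0.24 ± 0.12), THE1D (0.20 ± 0.11) and THE1C (0.18 ± 0.12), with adjusted p-values from 0.171 to 0.308. The 2 subfamilies with the lowest changes were MSTB, which holds the KRT80 locus, at -0.05 ± 0.10, and THE1C-int at -0.04 ± 0.19.

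RNA from the strand opposite to the element was higher in Z18trunc. It summed to 368, 304 and 324 CPM in Clover and 397, 421 and 444 CPM in Z18trunc, a log2 ratio of 0.34 without overlap, against 0.23 for the opposite strand of other LTR elements. Of 22 subfamilies 7 were called higher, MSTA, MSTB, MSTD-int, THE1A, THE1A-int, THE1B and THE1D-int (31.8%), against a background of 12.6% of 903 subfamilies. All 22 had a change above 0, as did 802 of all 903. Without the adjustment 12 passed (54.5%), against 31.7%. THE1A-int had the smallest adjusted p, 0.0033, at 58.1, 43.5 and 58.6 CPM in Clover and 70.4, 70.0 and 70.5 CPM in Z18trunc. MSTD-int had the largest change of the 7, 0.61 ± 0.20, at 2.76, 3.08 and 2.95 CPM against 4.54, 4.72 and 4.19 CPM. These calls were not stable. None was left with TMM or with scaling to opposite-strand counts. Both scalings take out a shift shared by most subfamilies, so this loss was partly built in. None was left without Clover replicate 2 either. Calls numbered 16 without Clover replicate 1, 3 without Clover replicate 3, 1 without Z18trunc replicate 2 and 2 without Z18trunc replicate 3. The count over all 903 subfamilies moved with these calls, from 114 to 256, 18, 11 and 11 in that order, and to 1 without Clover replicate 2. It was 195 without Z18trunc replicate 1. The median log2 change, 0.34 over the 22 subfamilies and 0.25 over all, was 0.10 and 0.011 with TMM and 0.065 and -0.031 with opposite-strand scaling. Changes above 0 then numbered 19 of 22 with TMM and 17 of 22 with opposite-strand scaling.

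No single locus was called on the opposite strand, where 152 member loci were tested and 0.0575% of all 12170 loci were called higher. Without the adjustment, 20 passed in the higher and 1 in the lower direction (13.2% and 0.658%), against 7.65% and 1.57% of all loci, and their median log2 change was 0.38 against 0.17.

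**Figure D5:**
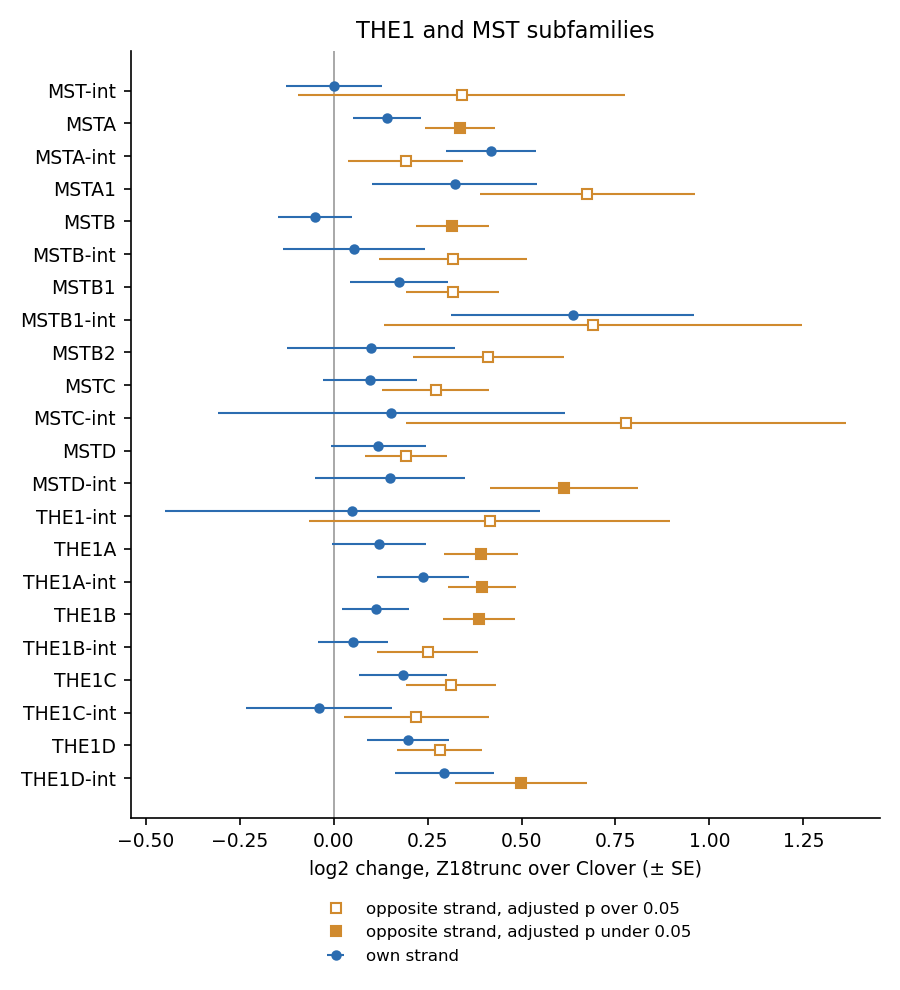
The log2 change of Z18trunc over Clover with its SE (horizontal axis) is drawn for the 22 subfamilies tested (rows), with blue circles for the own strand and orange squares for the opposite strand, filled where the adjusted p was under 0.05. All opposite-strand estimates lie to the right of 0, and 7 squares are filled, while the own-strand estimates of MSTB and THE1C-int lie to the left. Over all 903 subfamilies on the opposite strand, which are not drawn, 802 were above 0.

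Of the members' opposite-strand CPM, 23.3% came from 1 element, which was picked out after its values were seen. This is a share of the level and not of the change. In the 3′ UTR of MCFD2, a gene for a cargo receptor partner in the secretory pathway, lies a THE1A element in reverse orientation with both LTRs and the internal part (chr2:46903003-46905220). The LTRs match at 317 of 352 aligned positions (90.1%). Its opposite strand, which is the strand of MCFD2, was at 80.9, 60.7 and 85.4 CPM in Clover and 101, 103 and 96.4 CPM in Z18trunc, without overlap. This was the 23.3% of the members' opposite-strand CPM given above, and 85.7% of that of THE1A and THE1A-int. MCFD2 itself was at 85.4, 66.4 and 85.6 TPM in Clover and 106, 106 and 104 TPM in Z18trunc, a log2 change of 0.42 ± 0.11 on the log2(TPM + 1) scale with a limma adjusted p of 0.0851. Clover replicate 2 was the lowest library in both, and reads of the unit can also count toward the TPM of MCFD2. When loci in exons of either strand were left out, 1 subfamily, MSTA, was still called of 22, against 24 of all 871 subfamilies. Without the 20 member loci of highest opposite-strand counts, 6 of the 22 subfamilies were called, against 109 of all 903. The median log2 change was then 0.36 over the 22 and 0.25 over all.

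Genes known for THE1 or related LTR promoters or enhancers in other tissues had no member RNA here. No member locus was listed in the span or the 10 kb upstream of CSF1R, the receptor for macrophage colony stimulating factor, of CRH, the corticotropin releasing hormone, or of IL2RB, a subunit of interleukin 2 receptors. CSF1R reached at most 0.111 TPM, CRH was listed at 0 and IL2RB lay between 0.868 and 1.41 TPM.

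Genes that act on such RNA were followed from fixed lists. Of 9 NEXT, PAXT and cap-binding genes, ZC3H18 was called higher by limma and the others were not. It was the 1 gene called higher of all 13300 (0.00752%). The median log2 change over the 9, ZC3H18 included, was 0.38, or 0.24 after quantile normalization, against 0.11 and -0.01 over all genes. The smallest changes of the 9 were 0.04 for SRRT and 0.11 for PABPN1. ZFC3H1, a PAXT subunit, was at 3.83 ± 0.875 and 6.02 ± 1.003 TPM (adjusted p = 0.0918), and ZCCHC8, a NEXT scaffold, at 6.21 ± 0.668 and 8.66 ± 0.635 TPM (adjusted p = 0.0783). Of 12 genes of LTR silencing none was called, with a median of 0.21, or 0.09 after quantile normalization. TRIM28, the KRAB zinc finger corepressor, was at 618 ± 28.3 and 581 ± 36.3 TPM, and SETDB1, its histone methyltransferase partner, at 11.3 ± 1.14 and 13.3 ± 1.198 TPM. Of 14 host genes of the named loci with a mean of at least 1 TPM none was called, and without the adjustment IGFL4, KDM7A-DT and EDAR passed in the higher direction and none in the lower, against 25.6% and 2.9% of all genes.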

How the data were processed

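The authors trimmed reads with cutadapt 4.6 (per the labels), aligned to hg38 and counted annotated repeat loci with SQuIRE. Their deposited tables give uniquely mapped whole counts, and estimated counts in which an expectation-maximization step shared multiply mapped fragments, with no normalization. FPKM values deposited by the authors were not used for tests. The authors' divergence score was divided by 10 to give percent, and gene levels were the TPM deposited by the authors.

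After rounding of estimated counts, edgeR 4.0.16 in R 4.3.3 fitted quasi-likelihood models to each locus or subfamily total that reached 30 counts over 6 libraries. Library size was the aligned fragments without further scaling, and Benjamini-Hochberg adjustment was over all features of the 4 classes, with calls at 0.05. Genes whose TPM averaged 1 or more were tested with limma 3.58.1 on log2(TPM + 1), which understates the change of low genes. Alternatives used TMM, DESeq2 1.42.0, other filters, uniquely mapped counts, a replicate block and leaving out each library. Exons came from GENCODE 44 with bedtools 2.31.1, gene spans from the deposited tables, and sequences from hg38 with starts made 1-based. Sums over members carry no test. Some longer sequences are not reported here.

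Members, lists and tests were chosen with earlier results of these data known. Named loci were the 6 higher and 6 lower with the smallest p, the 8 most abundant, and any near CSF1R, CRH or IL2RB. The fits were tested on simulated data. Replicate pairs within a group differed beyond sampling noise (chi-square per degree of freedom 1.65 to 1.94), which does not show that libraries are independent. The study describes lines made in biological triplicate, and all 6 libraries were counted separately. Groups came from the sample titles.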

Additional observations from a re-analysis of the deposited data

How the results depend on the processing

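No member locus was called in the main analysis or with TMM, DESeq2 adjusted over all loci, a minimum of 10 counts, no filter, uniquely mapped counts, the replicate block or the opposite strand. Scaling to opposite-strand counts, DESeq2 with its own filter and a minimum of 100 counts called 1 each (THE1A in ENSG00000234156, MSTB in KRT80 and THE1B-int in IGFL4). Over all loci, these settings called 2 higher and 4 lower of 12453, 5 and 13 of 12453, and 34 and 2 of 3820. Leaving out 1 library called 0 to 1 member, the 1 being THE1A in ENSG00000234156 without Clover replicate 1. That setting called 25 higher and 6 lower of all 12453. Of member subfamilies, uniquely mapped counts called 1 (58 of all 857), and leaving out 1 library called 0 to 1. Both were MSTA-int, the latter without Z18trunc replicate 1 (81 of all 898). The opposite strand called 7 (114 of all 903). Those 7 became 0 with TMM, 0 with opposite-strand scaling, 0 with the replicate block, 1 without exonic loci and 0 to 16 without 1 library, alternatives chosen after seeing the data. No host gene was called under any alternative.

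The log2 ratio of the summed CPM was 0.13, and became -0.047 relative to element counts of both strands, 0.22 without the 20 most abundant loci, 0.27 without exonic loci and 0.34 on the opposite strand, and was 0.09 to 0.17 without 1 library. Small changes turned sign. With TMM they were -0.044 for THE1A-int in OR2A1-AS1, -0.0061 for subfamily THE1D and -0.019 for THE1C. With opposite-strand scaling they were -0.13, -0.085 and -0.10, and -0.029 for THE1A-int. With DESeq2 in both forms they were -0.036, -0.012 and -0.025. Without 1 library, MST-int in HLA-E ranged from -0.092 to 0.085, MSTC in HLA-E from -0.22 to 0.031 and THE1A-int in OR2A1-AS1 from -0.026 to 0.37. The cause was not tested.

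Equal replicate numbers mark no shared batch in the labels, and deviations of same-numbered samples correlated at -0.0070, -0.015 and -0.039 over tested loci, so the replicate block (0 member loci and 0 member subfamilies on the own strand) only gives each number a term. Depth limits loci with under 30 counts, which hold most of the members.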
